A study of Mus musculus with 12 samples.

Results

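The 35 genes described here carry cells through the division cycle, and their transcripts were measured by RNA sequencing in the cochlear epithelium of mouse embryos with and without Esrp1. They were chosen by name as known cell cycle genes, with earlier results of these data known. The table held 22869 gene symbols, of which 14717 had enough reads to be tested. All 35 were among those tested. By role they comprise 3 G1 cyclins, 15 genes of the G1/S transition and S phase, 15 genes of G2 and mitosis and 2 inhibitors of cyclin-dependent kinases (CDKs). A gene with several transcript rows is represented by the row with the most reads over all embryos.

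The tissue was whole cochlear epithelium at embryonic day 16.5 from C57BL/6 mice. The control group was 3 wild-type (Esrp1+/+) embryos and the knockout group 3 Esrp1-/- embryos, with no other allele or agent in the labels. The 2 cochleae of each embryo went into 1 sample after collagenase P treatment had loosened the mesenchyme. Each embryo gave 2 libraries whose reads stand in 1 column, so the embryo is the replicate. The genotype names no Cre driver and no cell type, so it applies to the embryo and not only to the epithelium. The deleted gene was low in each embryo labelled knockout. Esrp1, an epithelial splicing regulator, had 197, 102 and 118 CPM (reads scaled to a common depth) in controls 1, 2 and 3 and 27.2, 34.3 and 39.1 CPM in knockouts 1, 2 and 3, and it fell by 2.05 on the log2 scale (SE 0.26, adjusted p = 0.0354, edgeR). Leaving out control 3 or any 1 of the knockouts moved that adjusted p to between 0.122 and 0.158, at log2 fold changes of -2.18 to -1.93.

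A dividing cell first makes D-type cyclins, which with their kinases release E2F transcription factors from the retinoblastoma protein. E2F factors switch on genes for DNA replication, and a later wave under B-Myb, the MuvB complex and FOXM1 switches on genes for mitosis. The promoters of that later wave typically carry a CHR element and CCAAT boxes, which are read by MuvB and NF-Y. By this stage the hair cell and supporting cell precursors of the mammalian cochlea have left the cycle under the CDK inhibitor p27, encoded by Cdkn1b, while other epithelial and surrounding cells go on dividing. In bulk RNA, fewer cycling cells and less RNA per cycling cell cannot be told apart.

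The promoter sequences of 5 members are printed for the motif matches that were more frequent in the mitosis or in the S phase genes. Each line gives the 200 bases before the annotated start (RefSeq, GRCm38.p6), 5′ to 3′ on the strand of the gene, with motif matches in capitals. The mitosis genes Top2a, Cdk1, Cdc20 and Kif11 are shown for their CHR (TTTGAA or TTCGAA, or TTCAAA on the other strand) and CCAAT boxes (ATTGG on the other strand), and the helicase gene Mcm6 for its E2F matches.
Top2a, chr11:99024190-99024389, minus strand: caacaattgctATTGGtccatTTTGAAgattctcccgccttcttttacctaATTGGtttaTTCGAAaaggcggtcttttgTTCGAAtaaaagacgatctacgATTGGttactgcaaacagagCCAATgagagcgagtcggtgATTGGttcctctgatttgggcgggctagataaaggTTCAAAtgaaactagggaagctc
Cdk1, chr10:69352913-69353112, minus strand: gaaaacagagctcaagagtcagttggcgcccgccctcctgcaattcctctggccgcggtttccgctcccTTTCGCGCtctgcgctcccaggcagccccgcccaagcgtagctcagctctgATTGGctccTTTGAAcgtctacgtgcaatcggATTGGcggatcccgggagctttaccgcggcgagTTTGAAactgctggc
Cdc20, chr4:118437344-118437543, minus strand: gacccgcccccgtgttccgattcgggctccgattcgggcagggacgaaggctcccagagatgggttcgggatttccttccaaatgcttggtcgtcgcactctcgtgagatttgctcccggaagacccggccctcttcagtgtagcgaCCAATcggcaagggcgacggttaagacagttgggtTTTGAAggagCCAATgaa
Kif11, chr19:37376182-37376381, plus strand: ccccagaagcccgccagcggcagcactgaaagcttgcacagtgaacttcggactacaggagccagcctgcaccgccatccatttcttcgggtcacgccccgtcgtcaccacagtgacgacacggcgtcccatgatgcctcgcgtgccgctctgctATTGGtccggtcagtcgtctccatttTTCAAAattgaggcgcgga
Mcm6, chr1:128359706-128359905, minus strand: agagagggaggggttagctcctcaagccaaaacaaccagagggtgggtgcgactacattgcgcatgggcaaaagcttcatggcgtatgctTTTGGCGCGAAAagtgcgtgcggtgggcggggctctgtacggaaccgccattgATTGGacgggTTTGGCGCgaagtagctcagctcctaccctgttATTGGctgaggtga

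Among the members, 27 of 35 had a promoter window in RefSeq, of 300 bases from 250 before to 50 after the start. A CHR match stood in 10 of 12 windows of mitosis genes (83.3%) and in 2 of 14 windows of S phase genes (14.3%), beside 19.2% of all 32851 windows. CCAAT stood in 11 of 12 mitosis windows (91.7%) and 9 of 14 S phase windows (64.3%), beside 37.4% of all windows. E2F matches (TTTCCCGC, TTTGGCGC, TTTCGCGC or TTTGCCGC) stood in 7 of 14 S phase windows (50%), in 1 of 12 mitosis windows (8.33%) and in 2.26% of all. The mitosis window with an E2F match was that of Cdk1. Both strands were searched. The 14 S phase windows belong to 13 genes, since Mcm7 has 2. A pair of E2F matches overlapped in each of Mcm5 and Mcm6. Beyond the printed stretch, Plk1, Aurka, Bub1, Ccnb2 and Cenpf had a CHR match after their start, at bases 31, 33, 15, 5 and 3. These matches describe letters and are not shown to be bound, and no window was compared with expression.

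**Figure D1:**
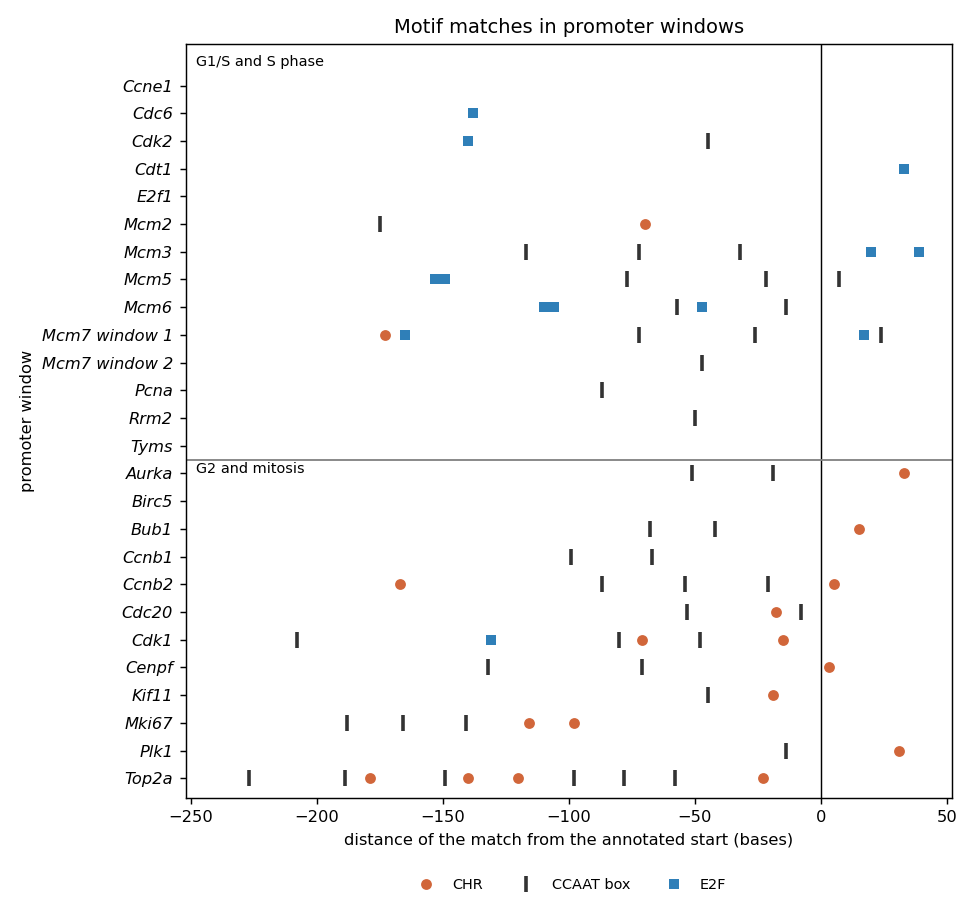
Motif matches in the promoter windows of the S phase and mitosis genes. The horizontal axis is the distance in bases from the annotated start, each row is a window, and symbols mark the first base of a CHR, CCAAT or E2F match on either strand. CHR matches lie in 10 of the 12 mitosis windows and E2F matches in 7 of the 14 S phase windows.

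Transcripts of the whole cycle were present in every embryo. Per length, on the authors' FPKM scale (reads scaled by transcript length and depth), the most abundant member was Cdkn1c, which encodes the CDK inhibitor p57, at 91.9 ± 12.3 FPKM in controls (SD, n = 3). Next came the G1 cyclin genes Ccnd1 at 41.9 ± 4.90 and Ccnd2 at 35.6 ± 15.2 FPKM, then Top2a, the DNA topoisomerase of dividing cells, at 31.6 ± 8.21 FPKM, and Ccnd3 at 27.9 ± 2.32 FPKM. The spread of Ccnd2 took in the means of the other 3, so its place among them is not set by these embryos. The range of Top2a overlapped those of Ccnd1 and Ccnd3, while Ccnd1 lay above Ccnd3 in every control. The lowest levels were those of Cdc6, which loads the replicative helicase, at 1.42 ± 0.242 FPKM, and of the transcription factor gene E2f1 at 2.60 ± 0.560 FPKM. The MCM subunits form a hexamer of 1 copy each, and 5 of the 6 genes lay between 12 (Mcm4) and 14.9 FPKM (Mcm2) in controls, while Mcm6 was at 24.7 ± 2.29 FPKM. The ratio of Mcm6 to the mean of the other 5 was 1.9, 1.78 and 1.79 in the controls and 1.71, 1.85 and 1.77 in the knockouts, a comparison chosen after its values were seen. The 2 groups overlapped in this ratio.

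None of the 35 members passed the test between knockout and control. Over all genes 22 of 14717 (0.149%) passed at an adjusted p under 0.05 in edgeR's quasi-likelihood test, 12 higher and 10 lower. DESeq2, which passed 166 of 15982 genes (1.04%), also passed 0 members, and the authors' deposited table gave an FDR of 1 to all 35. At an unadjusted p under 0.05 stood 3 members, Plk1, Cdc20 and Cdkn1c, beside 4.77% of all genes. The groups did not overlap for the same 3, beside 9.84% of all genes. In log2 fold change 22 members were positive and 13 negative, with a median of 0.05 beside 0.00 for all genes. The interval of the difference bounds what these embryos could have hidden: for all 35 members the 95% interval lay within a 2-fold change in either direction, as it did for 79% of all genes, and for 23 it lay within 1.5-fold, as for 50.3% of all genes.

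**Figure D2:**
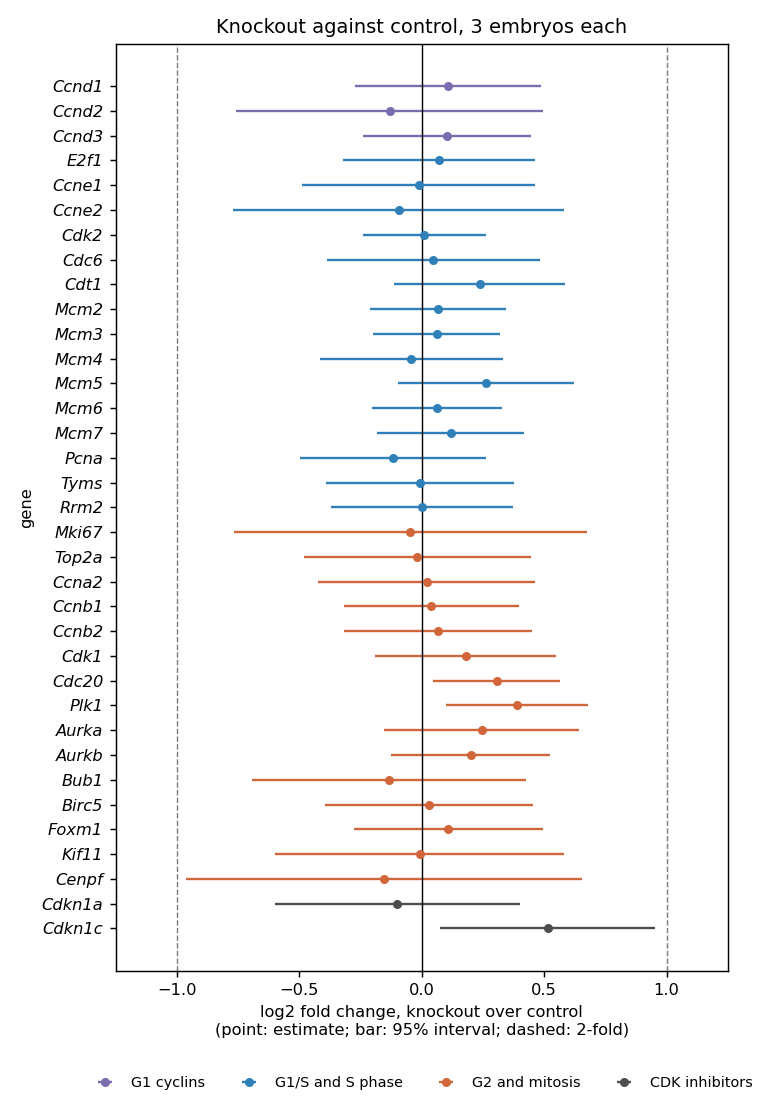
Log2 fold change of each member, knockout over control (point), with its 95% interval (bar), from 3 embryos per group. Dashed lines mark a 2-fold change, all 35 intervals lie between them, and those of Plk1, Cdc20 and Cdkn1c do not include 0 before adjustment.

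The G1 cyclins bind CDK4 and CDK6 and start the cycle. Ccnd1 had 473, 329 and 375 CPM in controls and 393, 408 and 467 CPM in knockouts (difference in log2 CPM, knockout over control, 0.11 ± 0.17 SE, adjusted p = 0.994, edgeR). Ccnd2 had 278, 590 and 615 CPM in controls and 428, 505 and 420 CPM in knockouts (log2 difference -0.13 ± 0.28, adjusted p = 0.994, edgeR). For both genes the groups overlapped and control 1 was at an extreme, the highest for Ccnd1 and the lowest for Ccnd2. The FPKM ratio of Ccnd1 to Ccnd2 was therefore 2.59 in control 1 but 0.847 and 0.927 in controls 2 and 3, with 1.4, 1.23 and 1.69 in the knockouts. Ccnd3 had 154, 114 and 132 CPM in controls and 153, 128 and 149 CPM in knockouts.

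At the G1/S transition, cyclin E activates CDK2 to start replication. Ccne2 had 12.2, 27.7 and 28.6 CPM in controls and 21.8, 23.8 and 18.5 CPM in knockouts, so control 1 lay below all others and the knockouts between the controls. Its partner gene Ccne1 spanned 14.4 to 17.2 CPM in controls and 12.2 to 19.7 CPM in knockouts. Cdk2 was the steadiest of these genes, at 58.0 to 62.5 CPM in controls and 58.5 to 62.7 CPM in knockouts, with a 95% interval of -0.24 to 0.26 on the log2 scale. E2f1 spanned 14 to 18.6 and 16.0 to 16.9 CPM. The licensing factor gene Cdt1 had 18.9, 24.0 and 19.8 CPM in controls and 22.7, 24.5 and 26.7 CPM in knockouts (log2 difference 0.24 ± 0.15, adjusted p = 0.994, edgeR), and the groups overlapped.

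The 15 S phase members as a group had a median log2 fold change of 0.05, with 9 positive and 6 negative and a range of -0.12 (Pcna) to 0.26 (Mcm5). For 12 of the 15 the interval lay within 1.5-fold. Mcm5 had 90.8, 111 and 101 CPM in controls and 146, 107 and 111 CPM in knockouts. Knockout 1 alone was high, and knockouts 2 and 3 lay at or near control 2. Mcm4 had 89.1, 119 and 107 CPM in controls and 83.4, 113 and 109 CPM in knockouts, low in embryo 1 of both groups. The other helicase genes varied less. Mcm6 spanned 166 to 185 CPM in controls and 177 to 187 CPM in knockouts, and Mcm2 113 to 130 and 121 to 135 CPM. The log2 fold changes of Mcm2, Mcm3, Mcm4 and Mcm7 were 0.07, 0.06, -0.04 and 0.12, each with overlapping groups. Cdc6 spanned 12.7 to 15.3 and 12 to 17.1 CPM. Pcna, the sliding clamp of the polymerase, had 67.6, 75.0 and 64.3 CPM in controls and 78.4, 61.0 and 51.3 CPM in knockouts, the widest spread being among the knockouts. The nucleotide synthesis genes Tyms and Rrm2 had log2 fold changes of -0.01 and 0.00.

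The 15 mitosis members had a median log2 fold change of 0.04, with 10 positive and 5 negative and a range of -0.16 (Cenpf) to 0.39 (Plk1). For 9 of the 15 the interval lay within 1.5-fold. Plk1 (chr7:122159435-122169884, RefSeq, GRCm38.p6) encodes a kinase that drives entry into mitosis. It had 36.5, 40 and 33.6 CPM in controls and 50.7, 48.7 and 44.8 CPM in knockouts, so that every knockout lay above every control (log2 fold change 0.39 ± 0.13 SE, 95% interval 0.10 to 0.68, unadjusted p = 0.0143, adjusted p = 0.678, edgeR). Cdc20 (chr4:118432901-118437343) encodes the activator of the anaphase-promoting complex. It had 55.2, 62.9 and 58.9 CPM in controls and 72.9, 70.7 and 75.1 CPM in knockouts, again without overlap (log2 fold change 0.30 ± 0.11, unadjusted p = 0.0263, adjusted p = 0.856, edgeR). Cdc20 overlaps Elovl1 on the opposite strand, and whether the counting used strand is not stated, so their reads may not be separable. The same limit holds for other members that overlap a gene on the opposite strand, among them Cdkn1c (Gm44732), Cdk2 (Pmel) and Ccna2 (Exosc9). The Cdc20 transcript has 1793 bases, in the range of lengths where knockout 1 was high over all genes. Cdc20 was highest in knockout 3, and without knockout 1 its log2 fold change was 0.29. The part of length in its values was not tested. In the authors' deposited table the log2 fold changes of Plk1 and Cdc20 were 0.30 and 0.22.

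Genes that act beside these did not separate the groups. Cyclin B and CDK1 form the kinase that triggers mitosis, and Ccnb1 had 36.2, 52.9 and 47.3 CPM in controls and 47.4, 48.0 and 44.6 CPM in knockouts. Cdk1 had 55.9, 75.1 and 69.8 CPM in controls and 89.5, 70.9 and 67.3 CPM in knockouts, with knockout 1 highest. Ccnb2, the other B-type cyclin gene, spanned 29.5 to 42.8 and 36.3 to 42.8 CPM, and Ccna2, the cyclin gene of S phase and G2, 80.8 to 115 and 77.1 to 117 CPM. Top2a had 316, 473 and 411 CPM in controls and 305, 459 and 420 CPM in knockouts, low in embryo 1 of both groups. The spindle kinase gene Aurka spanned 25.1 to 32.6 and 27.1 to 39.0 CPM, and Aurkb, of the chromosomal passenger complex, 25.3 to 32.7 and 32.6 to 36.5 CPM. Birc5, which encodes the survivin subunit of that complex, spanned 24.0 to 39.4 and 30.0 to 35.3 CPM. Foxm1, the transcription factor of the mitotic wave, spanned 36.5 to 53.1 CPM in controls and 42.6 to 54.9 CPM in knockouts.

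The 2 CDK inhibitors differed from each other. Cdkn1c (chr7:143458339-143461059) had 502, 353 and 463 CPM in controls and 762, 526 and 594 CPM in knockouts, so the lowest knockout lay just above the highest control (log2 fold change 0.51 ± 0.19 SE, 95% interval 0.07 to 0.95, unadjusted p = 0.0269, adjusted p = 0.860, edgeR). Without knockout 1 the log2 fold change of Cdkn1c was 0.34 (adjusted p = 0.999, edgeR). Knockout 1 was high for short transcripts over all genes, by a median of 0.27 on the log2 scale under 2000 bases. Cdkn1c has 1888 bases and stood 0.55 above the mean of the 6 embryos in knockout 1, and the part of length in that value was not tested. Cdkn1a, which encodes p21, had 51.5, 32.8 and 37.9 CPM in controls and 47.0, 29.3 and 37.8 CPM in knockouts, with full overlap. The FPKM ratio of Cdkn1c to Cdkn1a was 8.84, 9.58 and 11.1 in controls and 14.5, 16.2 and 13.9 in knockouts. The groups did not overlap in this ratio, which was chosen after its values were seen and was not tested.

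**Figure D3:**
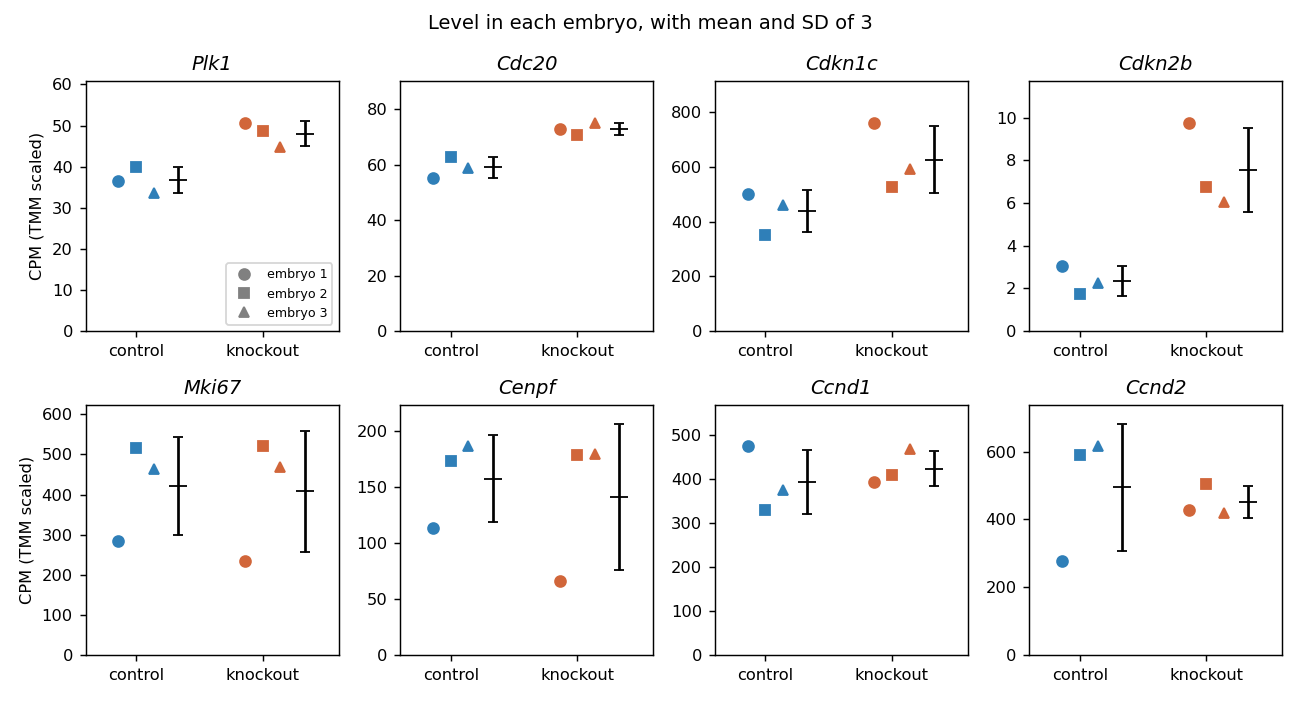
CPM (TMM scaled, linear axis from 0) in each of 3 control and 3 knockout embryos for 7 members and the related inhibitor gene Cdkn2b, with mean and SD as black bars. Plk1, Cdc20, Cdkn1c and Cdkn2b do not overlap between groups, while Mki67 and Cenpf are low in embryo 1 of both groups and Ccnd2 in control 1.

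Other genes of the cycle were examined by lists. Of 4 further CDK inhibitor genes tested, 0 passed in edgeR and 1 had an unadjusted p under 0.05. That gene, Cdkn2b, encodes the CDK4 and CDK6 inhibitor p15, and it had 3.07, 1.72 and 2.26 CPM in controls and 9.76, 6.76 and 6.07 CPM in knockouts. Every knockout was well above every control (log2 fold change 1.68 ± 0.32 SE, adjusted p = 0.151, edgeR), at a low level of 474 reads over the 6 embryos. Its transcript has 1390 bases, in the range where knockout 1 was high over all genes, and knockout 1 was its highest embryo. Without knockout 1 its log2 fold change was 1.446 (adjusted p = 0.328, edgeR), and the part of length was not tested. DESeq2 gave Cdkn2b an adjusted p of 0.000539, and edgeR without both embryos numbered 1 gave 0.0474, so the call depended on the tool and the embryos. Over the other alternatives in edgeR its adjusted p ranged from 0.0858 to 0.501. Cdkn1b, the p27 gene, had 129, 112 and 128 CPM in controls and 99.6, 127 and 136 CPM in knockouts, with overlap.

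Of 40 further replication genes 0 passed, with 26 positive and 14 negative log2 fold changes and a median of 0.04. The smallest unadjusted p was that of Pold1, the catalytic subunit of a replicative polymerase, at 41.7, 47.9 and 42.8 CPM in controls and 56.2, 53.4 and 50.1 CPM in knockouts, without overlap (log2 difference 0.27 ± 0.12, adjusted p = 0.994, edgeR). Of 57 further mitosis genes 0 passed, with 35 positive and 22 negative and a median of 0.05, and 2 had an unadjusted p under 0.05. Cdc25b, a phosphatase that activates CDK1, had 41.9, 40 and 38.7 CPM in controls and 59.4, 42.7 and 53.9 CPM in knockouts, with the lowest knockout just above the highest control (log2 difference 0.37 ± 0.15, adjusted p = 0.931, edgeR). The groups did not overlap for 5 of the 40 replication genes and 5 of the 57 mitosis genes, beside 9.84% of all genes. Among 16 further G1 and G1/S regulators 0 passed, with 6 positive and 10 negative. Rb1, the retinoblastoma gene, had 46.1, 46.4 and 44.7 CPM in controls and 27.8, 43.7 and 40.6 CPM in knockouts, so every knockout lay below every control and knockout 1 was the lowest (log2 fold change -0.29 ± 0.17, adjusted p = 0.994, edgeR). The groups did not overlap for 1 of these 16 genes, beside 9.84% of all genes. The Rb1 transcript has 4656 bases, in the range where knockout 1 was low over all genes, and the part of length was not tested. In the MuvB, B-Myb and DREAM list 0 of 6 passed, with Lin54, the subunit that binds the CHR element, at -0.17 in log2 fold change. Of 15 p53 target genes 0 passed, with 4 positive and 11 negative, a median of -0.19 and the exonuclease gene Aen at -0.32 (adjusted p = 0.994, edgeR). The groups did not overlap for 3 of the 15, beside 9.84% of all genes. Knockout 1 was the lowest embryo for 8 of the 15, beside 28.8% of all genes.

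Embryos of 1 genotype differed by more than the median difference between genotypes. The level of a set of genes in an embryo was taken as the average, over the set, of each gene's log2 CPM after subtracting its 6-embryo mean. For the 15 mitosis members it was -0.35, 0.16 and 0.07 in controls 1, 2 and 3 and -0.16, 0.18 and 0.10 in knockouts 1, 2 and 3. For the 15 S phase members it was -0.18, 0.13 and -0.03 in controls and 0.08, 0.04 and -0.05 in knockouts. Both groups of genes overlapped between the genotypes, and mitosis varied over a wider range than S phase. The 35 members together took 0.352, 0.448 and 0.436% of reads in controls and 0.431, 0.455 and 0.419% in knockouts.

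**Figure D4:**
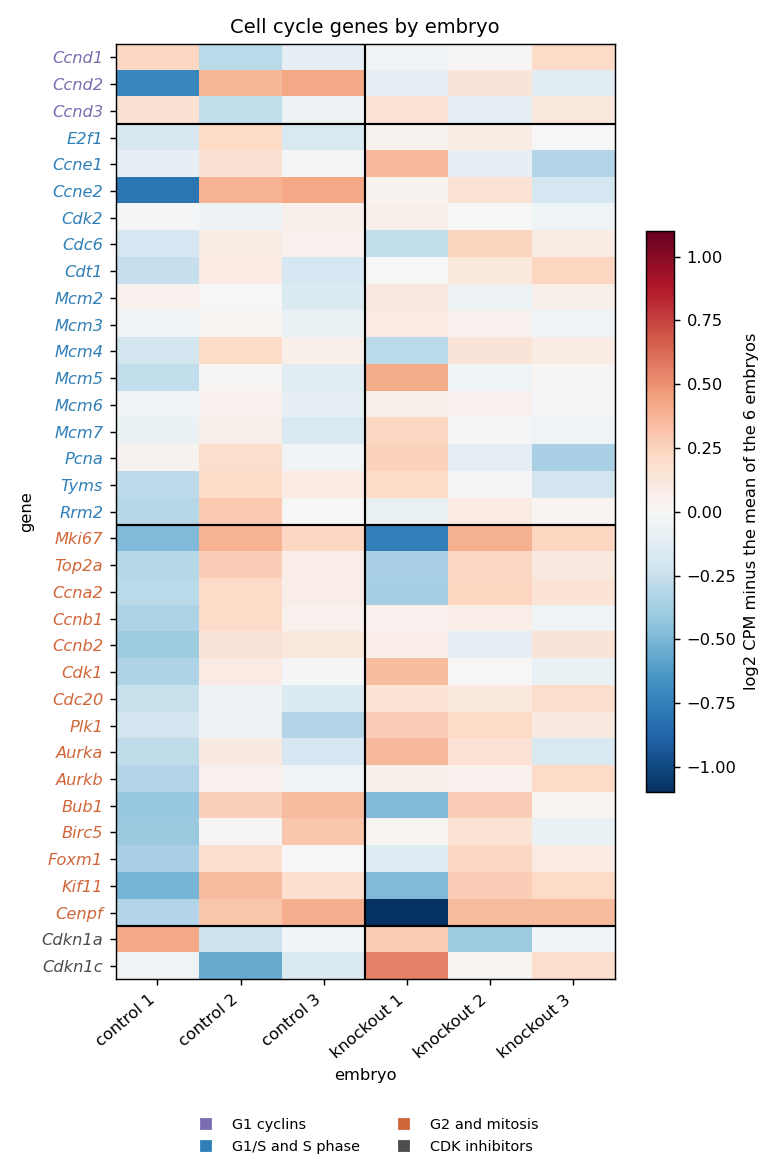
Level of each member in each embryo as log2 CPM minus the mean of the 6 embryos (blue low, red high), with genes grouped by role and a line between the 3 controls and 3 knockouts. Control 1 is below the mean for all 15 mitosis members, and knockout 1 is lowest for Cenpf and Mki67.

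Control 1 was the low embryo. It was below the mean of the 6 for 15 of 15 mitosis members and the lowest for 9, and below the mean for 13 of 15 S phase members and the lowest for 6. Over all genes control 1 was below the mean for 50.2% and the lowest for 21.5%. Kif11, the motor that separates the spindle poles, had 63.0, 114 and 102 CPM in controls and 64.1, 108 and 104 CPM in knockouts. Bub1, a spindle checkpoint kinase gene, had 34.8, 56.1 and 59.5 CPM in controls and 33.2, 56.3 and 47.4 CPM in knockouts. For both genes the embryos numbered 1 were low and the other 4 higher. The further lists, which share no gene with the members, had the same low embryo, with control 1 below the mean for 55 of 57 mitosis genes and 35 of 40 replication genes.

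Markers of some other cell types moved with control 1. All 5 neuron markers were lowest there, with a summed 65.7 CPM beside 304 and 518 CPM in the other controls and 287 to 379 CPM in the knockouts. All 5 macrophage and leukocyte markers were lowest there too, at a summed 32 CPM beside 69.1 and 73.6 CPM in the other controls and 68.5 to 98.3 CPM in the knockouts. Of 10 mesenchyme markers 7 were lowest in control 1, at a summed 2570 CPM beside 3210 and 3610 CPM, and 3220 to 3300 CPM in the knockouts. Of 15 cochlear epithelium markers 10 were highest in control 1, and their mean level was 0.44 there, -0.33 and -0.13 in controls 2 and 3 and -0.23, 0.01 and 0.24 in the knockouts. Between genotypes these markers had 7 positive and 8 negative log2 fold changes, with a median of -0.08 and a range of -1.352 to 1.098. In edgeR 0 passed, with a smallest adjusted p of 0.106. An unadjusted p under 0.05 in edgeR was found for 4 of the 15, beside 4.77% of all genes. For 4 of the 15 the groups did not overlap, beside 9.84% of all genes. The sum of these markers, which the abundant ones dominate, was 4900 to 9680 CPM in controls and 10400 to 13100 CPM in knockouts. The erythroid, endothelial and Schwann and glial lists also had levels below the mean in control 1, at -0.429, -0.395 and -0.642. Their lowest levels were in knockout 2 for the erythroid (-0.612) and knockout 3 for the endothelial markers (-0.564). For the Schwann and glial markers the lowest level was that of control 1. All 4 erythroid markers tested and all 5 endothelial markers were highest in control 2, at a summed 116 and 394 CPM beside 28.7 to 62.6 and 189 to 306 CPM in the other embryos. The 5 Schwann and glial markers summed to 509 to 644 CPM in controls and 412 to 573 CPM in knockouts, with 2 of 5 lowest and 2 of 5 highest in control 1. No tested marker of these lists was at 0 reads in any embryo. The immediate early gene Fos had 153 CPM in control 1 and 64.6 CPM in knockout 1, beside 1 to 7.27 CPM in the other 4 embryos. The part of these differences in the low cell cycle levels was not tested.

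Knockout 1 departed in another way, high for short transcripts and low for long ones. Over all tested genes its median level, against the mean of the 6 embryos, was 0.27 for transcripts under 2000 bases, 0.03 from 2000 to 4000, -0.16 from 4000 to 6000 and -0.34 above 6000 (log2, 14454 genes with a length). The bins were chosen after the values were seen. Cenpf, a kinetochore gene with the longest transcript of the members at 11130 bases, had 113, 173 and 186 CPM in controls and 66.1, 178 and 179 CPM in knockouts. Mki67, the proliferation marker Ki-67, with 10061 bases, had 283, 516 and 464 CPM in controls and 235, 520 and 468 CPM in knockouts. Both were lowest in knockout 1 and next lowest in control 1, and in the remaining 4 embryos the genotypes overlapped. Ccna2 (2965 bases, 77.1 CPM) and Bub1 were also lowest in knockout 1, while Cdk1 was highest there. For Bub1 and Cdk1 the length used here differs from the one implied by the authors' FPKM, so they are not read against length. Knockout 1 was the highest embryo for 9 of 15 S phase members, beside 29.1% of all genes. Its mitosis level less its S phase level was -0.24, and that of control 1 was -0.17, while in the other 4 embryos this difference was 0.03 to 0.15. The part of transcript length in these values was not tested.

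**Figure D5:**
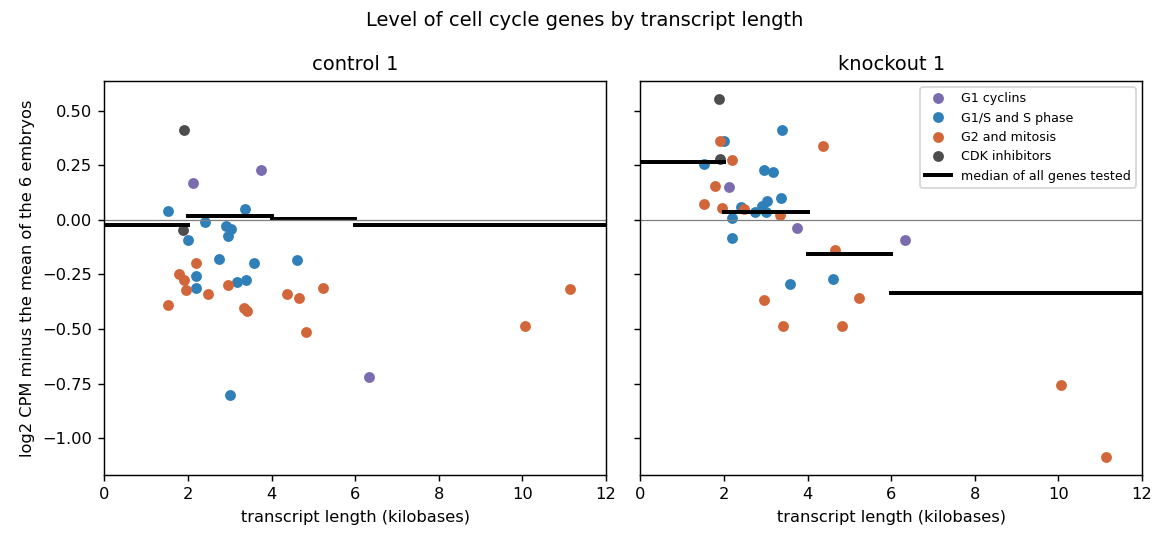
Level of each member (log2 CPM minus the mean of the 6 embryos) against transcript length in kilobases, in control 1 and knockout 1. Black bars are the median of all genes tested in 4 length bins: they stay near 0 in control 1 and run from 0.27 to -0.34 in knockout 1. The plotted lengths of some members, among them Cdk1 and Bub1, differ from those implied by the authors' FPKM.

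The genotype comparison was repeated without both embryos numbered 1, with 2 embryos left per group. The median log2 fold change was -0.007 for the S phase members and -0.015 for the mitosis members, and 0 members passed. Plk1 had 0.34 (adjusted p = 0.316), Cdc20 0.25 (adjusted p = 0.325) and Cdkn1c 0.45 (adjusted p = 0.200), all in edgeR. The smallest adjusted p of a member in that fit was 0.182, for Ccnd2 at -0.39. The Y-linked gene Ddx3y was at 95 and 81.9 CPM in knockouts 2 and 3, which had at most 0.268 CPM of the X-inactivation transcript Xist, while the controls and knockout 1 had under 1 CPM of Ddx3y and at least 1100 CPM of Xist. Without embryos 1, or without knockout 1 alone, genotype and sex therefore cannot be told apart. The values given above without knockout 1, among them those of Cdc20, Cdkn1c and Cdkn2b, carry this limit. Sex was also unbalanced in the full comparison, where only knockouts 2 and 3 had this Y-linked signal. The part of sex in the genotype differences was not tested.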

How the data were processed

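Polyadenylated RNA of 6 embryos (12 libraries) was sequenced. The authors deposited read counts per RefSeq transcript with no normalisation and FPKM scaled by length and depth, per the file headers, with 1 column per embryo. The log2 fold changes and FDR (adjusted p-value) in the authors' deposited table come from edgeR per the file headers. Build mm10 and edgeR are named per the submitters' processing notes. Which aligner and which counter were used is not given in the sources used here. Besides these, 6 columns of per-embryo values were left unused.

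Depth was 12547301 to 21568516 reads per embryo. Counts were filtered with filterByExpr (minimum count 10), scaled by TMM and tested with edgeR 4.0.16 (R 4.3.3) by the quasi-likelihood F test, two-sided, with Benjamini-Hochberg adjustment over all genes and a threshold of 0.05. The SE is the size of the log2 fold change divided by the root of F, and intervals are 95%. The spread is between 3 embryos per group. DESeq2 1.42.0, RLE scaling, no count filter, all transcript rows, a replicate block and leaving out embryos were alternatives. The test was checked on simulated counts. Of the members, 9 had more than 1 row, and a further row had at most 3.46% fewer reads. Transcript lengths came from GENCODE M21, taking the longest transcript paired with the RefSeq accession. For some members, among them Cdk1 and Bub1, they differ from the length implied by the authors' FPKM.

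Named are all members, Esrp1, and of each further cycle list the gene with the smallest adjusted p where none passed. Cdkn1b was added after its values were seen. Marker lists are given by counts and ranges, with Fos, Xist and Ddx3y beside results they move with. Members and lists were chosen with earlier results of these data known.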

Additional observations from a re-analysis of the deposited data

How the results depend on the processing

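No member passed under any of the 12 alternatives, among which the smallest adjusted p in edgeR was 0.182. The count of all genes called, 22, was 166 in DESeq2, 159 without both embryos numbered 1 and 0 to 30 when single embryos were left out (0 without control 3 or knockout 2, 4 without knockout 3, 12 without knockout 1, 13 without control 2, 30 without control 1). With the embryo number as a replicate block 6 genes and 0 members were called, and Esrp1 had an adjusted p of 0.134. Same-numbered control and knockout embryos share the first part of a code in the labels, whose meaning is not stated. The numbers were not taken as pairs, since the series text names no block. Same-numbered deviations correlated at 0.077, 0.177 and 0.029 over genes, and differently numbered ones at -0.224 to 0.158. Control 1, control 3 and knockout 3 correlated best with another number. With 3 embryos per group these correlations cannot decide whether the numbers mark pairs. Both embryos numbered 1 shared high immediate early genes (2.47 and 1.15, beside -1.50 to -0.58 in the others) and a low mitosis less S phase level (-0.17 and -0.24). With RLE scaling, no count filter or all transcript rows the count was 22, 31 and 22. The median of the S phase members ranged from -0.007 to 0.094 and that of the mitosis members from -0.103 (without control 1) to 0.174 (without knockout 1), both within 1 SD of the embryo levels (0.118 and 0.228). Their signs are therefore not fixed, and 24 of the 35 members changed sign under at least 1 alternative. The largest shift was 0.33, for Cenpf without knockout 1. The number of embryos, 3 per group, limits the precision.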
